A study of Mus musculus with 6 samples.

Results

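Translation initiation factors are the proteins that bring the small ribosomal subunit, the initiator tRNA and an mRNA together at a start codon. Their genes were taken as every listed gene whose symbol begins with Eif1 to Eif6, leaving out the eIF2 kinases (Eif2ak symbols), and 51 of the 15319 listed genes matched. The genes were measured by RNA-Seq in tumor-infiltrating Tregs, the Foxp3-expressing CD4+ T cells that restrain other T cells, from mice bearing lung tumors of the mouse lung carcinoma line LLC. Mice aged 8 to 10 weeks had received LLC cells through the tail vein, and the tumors were taken at 21 days. The WT group carried the Foxp3Yfp-Cre allele alone, and the cKO group carried Xrcc6flox/flox together with the same Foxp3Yfp-Cre allele. Both groups therefore expressed YFP and Cre from Foxp3, and Xrcc6, the gene of the DNA end-binding protein Ku70, was open to deletion only in cells of the cKO group that had expressed Foxp3. Each group had 3 libraries. The labels do not say whether each library came from a separate mouse, so that p-values measure the spread between these libraries, which may be technical.

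Initiation in the cytoplasm starts when eIF2, bound to GTP, loads the initiator tRNA onto a small subunit that already carries eIF1, eIF1A, eIF5 and eIF3, and when eIF4E, eIF4G and the helicase eIF4A open the capped end of the mRNA. In T cells the rate of initiation is known to climb on activation, through mTORC1, which releases eIF4E from its 4E-BP repressors, and to drop under stress, through kinases that phosphorylate eIF2 and so stall its exchange factor eIF2B. None of these controls needs a change in the mRNA of a factor, and the libraries measured mRNA only.

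Total counts ranged from 19032620 to 23159815 per library. Levels are given as CPM, the count relative to the library total after TMM scaling, a scaling that aligns the bulk of genes between libraries. Xrcc6 had 20.9, 63.1 and 23.8 CPM in WT replicates 1, 2 and 3, and 5.24, 3.51 and 4.18 CPM in cKO replicates 1, 2 and 3, so that every cKO library lay below every WT library. WT replicate 2 stood apart. It listed 11513 genes with a count, against 14442 to 14737 in the other 5 libraries, at a similar total. All 7 Treg markers were present in each library, with a summed level of 4170 to 5540 CPM. Summed macrophage markers were 179, 657 and 676 CPM in the WT libraries and 226, 523 and 996 CPM in the cKO libraries, and 1 of the 8 was at 0 in WT replicate 2 only. The 4 detected CD8 T and NK cell markers summed to 5.26 CPM in WT replicate 2, with Cd8a and Klrb1c, 2 of the 4, at 0, and to 16.5 to 21.3 CPM elsewhere. Red blood cell markers, all 5 at 0 in WT replicate 2, summed to at most 36.1 CPM. The sums were at most 49.5 CPM for neutrophil markers and 12.1 to 48.7 CPM for B cell markers, where 3 of the 7 and 2 of the 6 were at 0 in WT replicate 2. Among neutrophil markers, S100a9 had at most 0.208 CPM in WT and 1.11 to 1.91 CPM in cKO. Retnlg had 0 CPM in WT and 0.625 to 1.51 CPM in cKO, while S100a8, Csf3r, Cxcr2, Ly6g and Mmp9 overlapped between groups. Epithelial and tumor cell markers summed to 36.3 to 101 CPM, and 4 of the 6 were at 0 in WT replicate 2. The part of these other cells in any level below was not tested, and in whole-population RNA fewer cells of a type and less RNA per cell cannot be told apart.

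All 51 initiation factor genes had counts, and none passed an adjusted p of 0.05 in the quasi-likelihood test of edgeR between cKO and WT, nor did any of the 15315 genes tested in either direction (0.0%). By DESeq2, no initiation factor passed either. Xrcc6, the targeted gene, was itself missed by edgeR on 6 libraries (log2 fold change -3.06, SE 0.48, adjusted p of 0.984). DESeq2 called it on the same libraries (log2 fold change -3.05, adjusted p of 1.22e-05). A gene that did not pass in edgeR on 6 libraries is therefore not shown to be unchanged. Without WT replicate 2, edgeR called 0.00654% of genes lower, which was Xrcc6 alone, and 0.0% higher. At an unadjusted p of 0.05, edgeR on the 6 libraries passed 1 initiation factor as higher in cKO, where the share of all genes was 0.94%, and 0 as lower, against 0.868%. That gene was Eif4e1b, a cap-binding relative of eIF4E known from oocytes, with 0 counts in each WT library and 1, 3 and 2 counts in the cKO libraries. All 6 values were at or under the 3 counts that a count of 0 allows, a limit that covers counting error only, so no fold change is given. Its unadjusted p was 0.0459 with edgeR and 0.359 with DESeq2, and without WT replicate 2 no initiation factor passed in either direction, against 1.52% of all genes higher and 1.5% lower.

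The median standard error of the log2 fold change was 0.19 for initiation factors, against 0.39 over all genes, and 0.15 against 0.22 without WT replicate 2. Most initiation factors are well expressed, and among genes at 10 CPM or more the medians were closer, 0.18 against 0.23 on 6 libraries and 0.15 against 0.16 without WT replicate 2. The 95% interval of the log2 fold change stayed within 1 of 0 for 43 of the 51 genes on 6 libraries and for 48 without WT replicate 2, where the shares of all genes were 41.5% and 62.7%. Eif4ebp3, Eif3j2 and Eif4e1b, the genes with the lowest counts, were the 3 whose interval went beyond that range in both fits. The log2 fold change was above 0 for 29 of the 51 (56.9%) in both fits, where the shares of all genes were 54.5% and 48.6%. The median was 0.07 on 6 libraries (all genes 0.04) and 0.02 without WT replicate 2 (all genes -0.01). The plot of fold changes sets both fits beside each other.

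**Figure D1:**
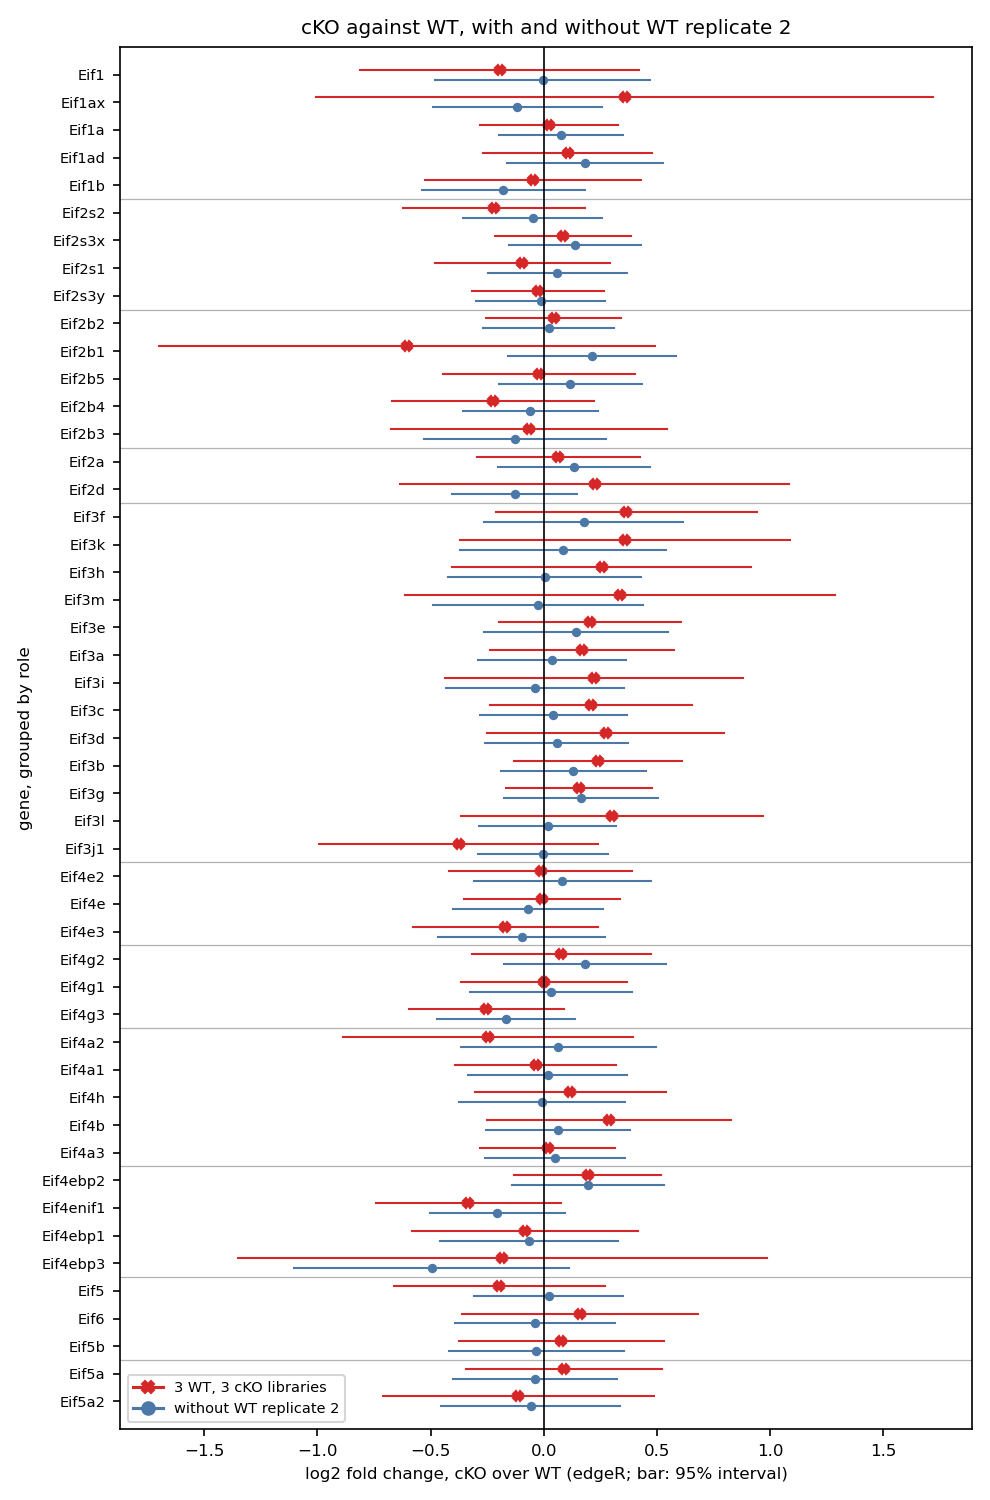
The x axis gives log2 of the fold between cKO and WT (above 0, higher in cKO) for 49 initiation factor genes, grouped by role from scanning factors at the top to eIF5A at the bottom, with bars for the 95% interval of edgeR's fit. Crosses use all 6 libraries and circles leave out WT replicate 2; every interval crosses 0, and the wide bars of Eif1ax and Eif2b1 narrow when that library is left out. Eif3j2 and Eif4e1b, with very few counts, are not drawn.

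The start-codon scanning factors keep the small subunit in a form that can move along the mRNA until it meets AUG. Eif1, the gatekeeper of start-codon choice, had 2922, 4478 and 3372 CPM in WT replicates 1 to 3 and 2933, 2991 and 3488 CPM in the cKO libraries. The groups overlapped, and WT replicate 2 was the highest library. Its log2 fold change was -0.19 (SE 0.26) on 6 libraries and -0.00 (SE 0.21) without WT replicate 2. Per kilobase of transcript, Eif1 had the highest mean level of the 51 genes, 2545 CPM per kb, and made up 98.4% to 99.3% of the summed Eif1 and Eif1b level per kb in each library. Counts of Eif1 were fractional in all 6 libraries, as when reads are shared with near-identical copies, so its level is uncertain.

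eIF1A, which sits beside eIF1 on the scanning subunit, is encoded by Eif1a and by the X-linked Eif1ax (GRCm38 chrX:159372178-159389928, plus strand). Eif1ax had 94.0, 13.7 and 78.8 CPM in the WT libraries and 70.6, 93.2 and 75.2 CPM in the cKO libraries. WT replicate 2 lay at 0.167 times the mean of the other 5, the lowest ratio of any initiation factor at 10 CPM or more. Eif1a, by contrast, had 62.9, 68.1 and 58.6 CPM in WT and 66.4, 62.6 and 63.5 CPM in cKO. Its share of the summed Eif1a and Eif1ax level per kb was 90.0% in WT replicate 2 and 54.7% to 62.9% in the other 5 libraries. The log2 fold change of Eif1ax was 0.36 (SE 0.58) on 6 libraries and -0.12 (SE 0.16) without WT replicate 2. Eif1b, a close relative of Eif1, ranged from 26.5 to 36.3 CPM and Eif1ad, named for its eIF1A domain, from 43.9 to 57.5 CPM, and both overlapped between groups.

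eIF2 is a trimer, and its gamma subunit is encoded in the mouse by an X-linked and a Y-linked gene. Eif2s3x had 97.8, 105 and 90.4 CPM in WT and 99.0, 105 and 107 CPM in cKO, with a log2 fold change of 0.09 (SE 0.13). Without WT replicate 2 its cKO values all lay above its WT values, as for 8.48% of all genes, at a log2 fold change of 0.14 (SE 0.13). Eif2s3y was the steadiest of the 4 subunit genes, with 67.2, 73.3 and 76.2 CPM in WT and 71.0, 71.3 and 70.9 CPM in cKO. Per kb it gave 56.8% to 62.6% of the summed Eif2s3x and Eif2s3y level. The Y-linked Ddx3y, Kdm5d and Uty had counts in all 6 libraries as well, and Xist was not among the genes listed. Eif2s2, the beta subunit, had 95.9, 138 and 105 CPM in WT and 91.5, 105 and 94.5 CPM in cKO, the groups overlapping and WT replicate 2 the highest. Its log2 fold change was -0.22 (SE 0.17), or -0.05 (SE 0.14) without that library, and Eif2s1, the alpha subunit that the stress kinases phosphorylate, ranged from 88.2 to 121 CPM with the same library highest.

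eIF2B recharges eIF2 with GTP. Eif2b1 (GRCm38 chr5:124570213-124579131, minus strand), whose product is the alpha subunit, had 28.0, 93.9 and 29.2 CPM in WT and 27.5, 34.7 and 37.1 CPM in cKO. WT replicate 2 was 3.0 times the mean of the other 5, the highest ratio among the initiation factors at 10 CPM or more. The log2 fold change was -0.61 (SE 0.47) on 6 libraries and 0.21 (SE 0.16) without WT replicate 2, a change of sign that rested on that library. Eif2b2 stayed between 58.2 and 65.3 CPM in all 6 libraries, and the remaining subunit genes Eif2b3, Eif2b4 and Eif2b5 overlapped between groups. Of the factors that can deliver tRNA without eIF2, Eif2a had 45.2 to 57.7 CPM, with overlapping groups. Eif2d had 59.3, 19.97 and 54.6 CPM in WT and 54.1, 50.7 and 51.7 CPM in cKO, so that the cKO libraries lay between WT replicate 2 and the other WT libraries. The log2 fold change of Eif2d was 0.22 (SE 0.37) on 6 libraries and -0.13 (SE 0.12) without WT replicate 2, where the cKO values all lay below the WT values, as for 7.53% of all genes.

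**Figure D2:**
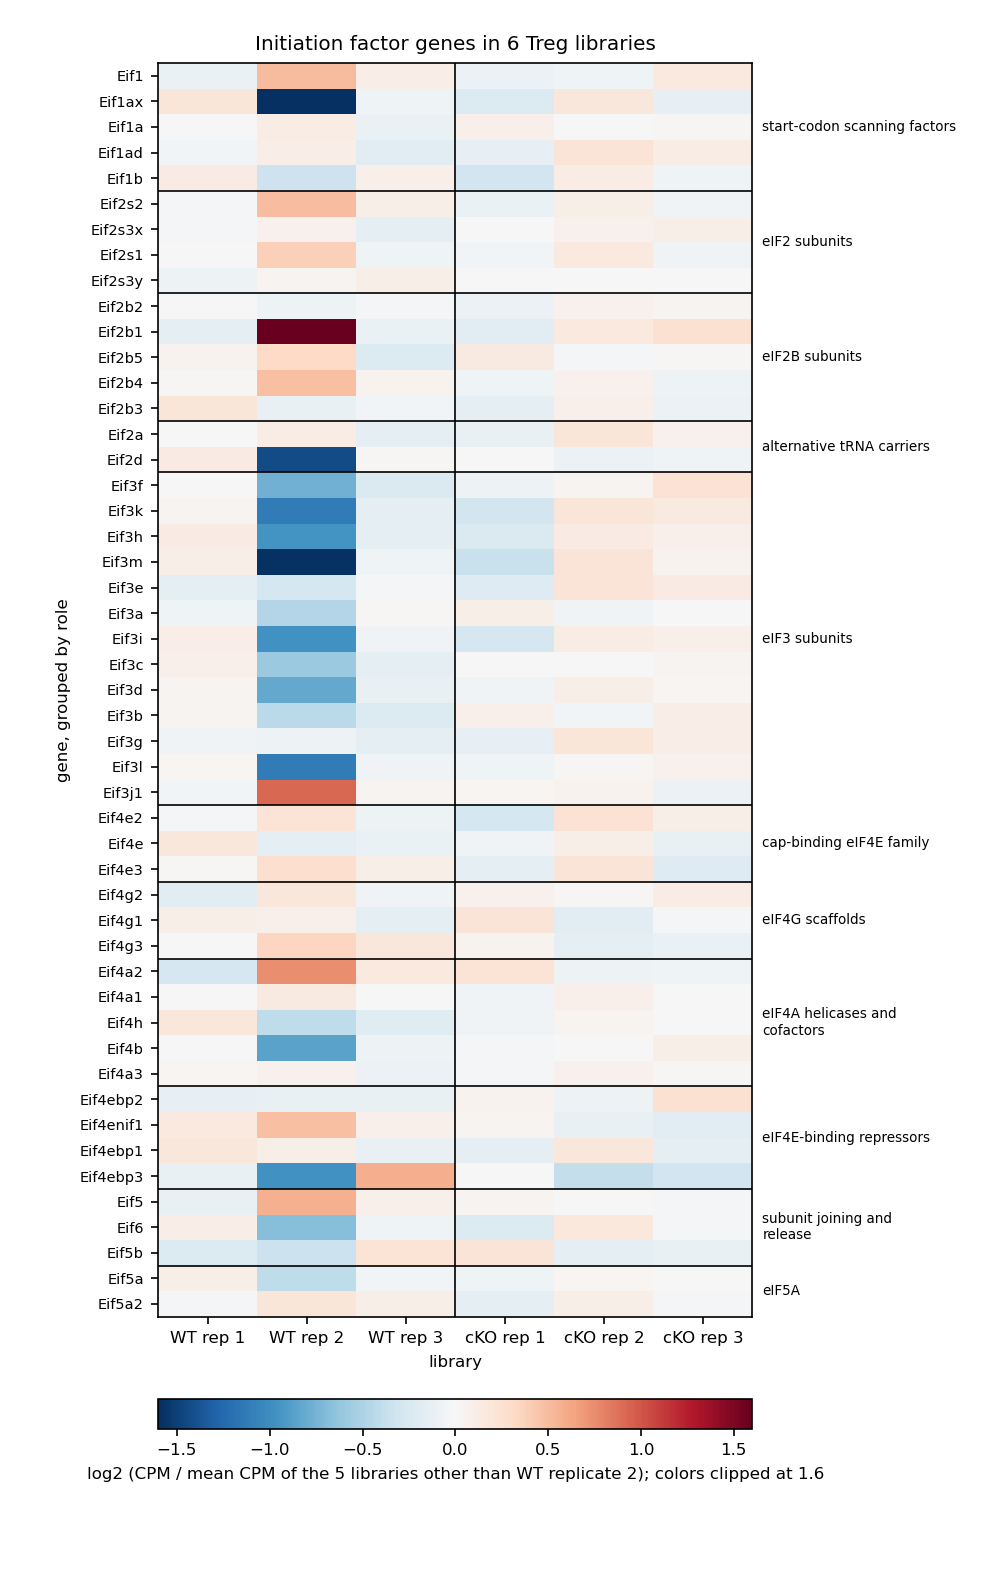
Rows are 49 initiation factor genes grouped by role and columns are the 6 libraries; the color gives log2 of the CPM over the mean CPM of the 5 libraries other than WT replicate 2, from blue (lower) to red (higher), with colors clipped at 1.6. WT replicate 2 holds the strongest colors in both directions, among them blue for 11 of 13 eIF3 subunit genes that lay below every other library, and red for Eif2b1. Of all genes at 10 CPM or more, 40.8% lay below every other library there.

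eIF3 is the largest initiation factor, a scaffold on the small subunit that prevents early joining of the large subunit and links to eIF4G. Of its 14 listed genes, 13 had a log2 fold change above 0 on 6 libraries, against 54.5% of all genes. The median was 0.25 (all genes 0.04), and none of the 14 passed a p of 0.05, adjusted or not. Without WT replicate 2 the count was 11 of 14, against 48.6% of all genes, and the median 0.05 (all genes -0.01). Eif3j2 was at or under 1 CPM in every library, and its counts, like those of its near-identical copy Eif3j1, were fractional in 4 libraries, so the split between the pair is uncertain. The 13 genes at 10 CPM or more, taken over the 5 libraries other than WT replicate 2, had a median log2 fold change of 0.24, which ranged from 0.21 to 0.43 when any library other than WT replicate 2 was left out, was 0.11 with voomWithQualityWeights, which weights each library by its spread, and was 0.04 without WT replicate 2. Subunit genes were measured in the same libraries and are not independent of each other.

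The members of the eIF3 octamer, the PCI and MPN domain core made of subunits a, c, e, f, h, k, l and m, were below all other 5 libraries in WT replicate 2, 8 genes of 8, against 40.8% of all genes at 10 CPM or more. The median of the 8 genes was 0.552 times the mean of the other libraries. Eif3m (GRCm38 chr2:104999656-105017080, minus strand) went furthest, with 523, 164 and 465 CPM in WT and 383, 566 and 507 CPM in cKO. Its ratio was 0.335, its log2 fold change 0.34 (SE 0.41) on 6 libraries and -0.02 (SE 0.20) without WT replicate 2. Eif3f had 1205, 708 and 1031 CPM in WT and 1136, 1238 and 1419 CPM in cKO. WT replicate 2 was again the lowest library, and the other WT libraries lay at the lower end of the cKO range or below it. Its log2 fold change was 0.37 (95% interval -0.21 to 0.94) on 6 libraries and 0.18 (95% interval -0.26 to 0.62) without WT replicate 2. WT replicate 2 was the lowest library for Eif3k as well, with 552, 247 and 487 CPM in WT and 438.5, 616 and 595 CPM in cKO. Eif3h and Eif3l had 275 and 62.7 CPM in WT replicate 2 against lowest values elsewhere of 453 and 129 CPM. Eif3a, Eif3c and Eif3e departed less, at 0.725, 0.660 and 0.820 times the mean of the other libraries.

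The subunits b, g and i bind the octamer as a module. Eif3i had 297, 141 and 266 CPM in WT and 230, 299.7 and 292 CPM in cKO, and Eif3b had 142, 102 and 119 CPM in WT and 146, 134 and 149 CPM in cKO. WT replicate 2 was the lowest library for both. Eif3g, an RNA-binding subunit, was the exception, with 119 CPM in WT replicate 2 inside its range of 114 to 143 CPM elsewhere. Eif3d, a subunit able to bind the cap itself, had 90.5 CPM there against 147 to 169 CPM in the other 5 libraries. Eif3j1, the loosely bound subunit, went the other way, with 47.9, 92.9 and 50.6 CPM in WT and 50.3, 50.9 and 46.1 CPM in cKO. Its log2 fold change was -0.38 (SE 0.26) on 6 libraries and -0.00 (SE 0.13) without WT replicate 2.

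**Figure D3:**
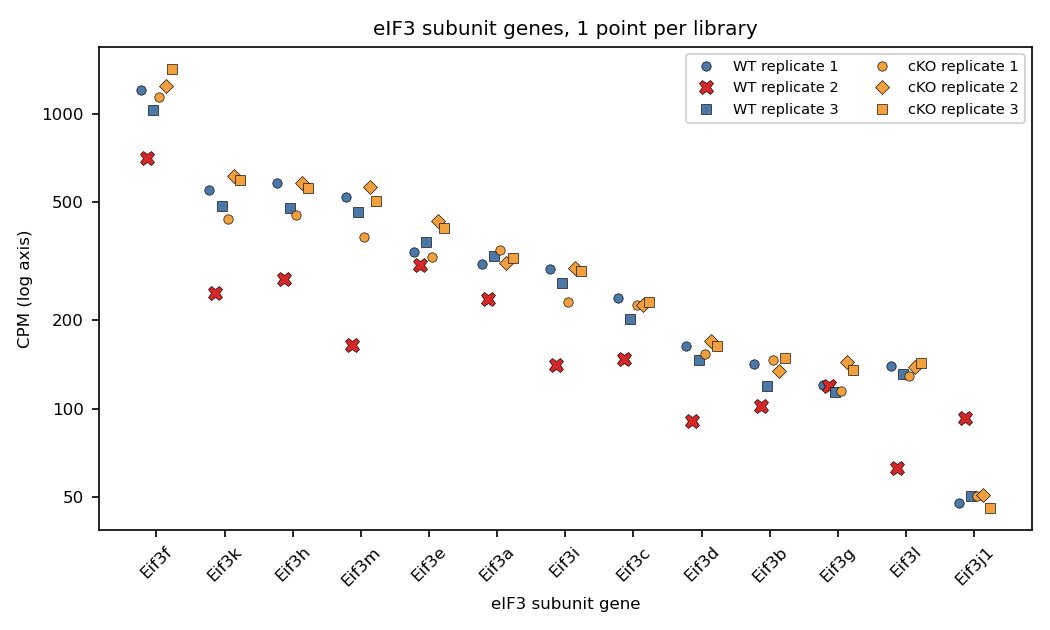
Each point is 1 library, with the CPM on a log axis and 13 eIF3 subunit genes along the x axis; blue marks WT, orange cKO, and the red cross WT replicate 2. The cross lies below the other 5 points for 11 genes, within them for Eif3g and above them for Eif3j1 at 92.9 CPM, while the remaining WT and cKO points overlap or lie close together. Of all genes at 10 CPM or more, 40.8% were below the other 5 libraries in WT replicate 2.

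Among the 5 libraries other than WT replicate 2, the highest library was cKO replicate 2 for 8 of the 13 eIF3 genes, cKO replicate 3 for 3, and cKO replicate 1 and WT replicate 1 for 1 each, so that a cKO library was the highest for 12 of the 13, against 54.7% of all genes at 10 CPM or more. The lowest was cKO replicate 1 for 6, WT replicate 3 for 5, and WT replicate 1 and cKO replicate 3 for 1 each, so that a cKO library was the lowest for 7 of the 13, against 52.4% of genes. These genes move together between libraries, and their order was not tested. Over all 8436 genes at 10 CPM or more, each of these 5 libraries was the lowest for 17.2% to 24.2% and the highest for 17.0% to 26.1%. Across the 13 genes and the fit without WT replicate 2, the 95% intervals of the log2 fold change ran from -0.49 for Eif3m to 0.62 for Eif3f. Levels per kb of the subunit genes were unequal although most subunits stand in the complex at equal number, from 10.4 CPM per kb for Eif3j1 through 44.8 for Eif3b and 60.3 for Eif3a to 447 for Eif3f and 538 for Eif3k. Those values depend on the transcript taken as the length, here the longest well-supported coding transcript.

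Since eIF3 genes departed together in WT replicate 2, their promoters were read. RefSeq promoters (GRCm38.p6, 250 bases before to 50 after the annotated start) matched 39 of the 51 genes, and not Eif1a, Eif2b3, Eif3e, Eif3h, Eif3i, Eif3j2, Eif4e1b, Eif4e3, Eif4ebp1, Eif4ebp3, Eif4g2 and Eif6. The letters CACGTG, the E-box that Myc and related factors can bind and a palindrome that reads alike on both strands, were in at least 1 promoter of 10 of the 39 genes (25.6%), against 8.09% of all 27025 genes in the promoter table and 12.6% of the 6799 genes at 10 CPM or more with a promoter. By promoter, the shares were 23.5% of 51 and 7.15% of 32851. The 10 genes were Eif1b, Eif3a, Eif3f, Eif3k, Eif4a1, Eif4e, Eif4g1, Eif4h, Eif5a and Eif5a2, of which 7 were below all other libraries in WT replicate 2 and 2 above. Of the 39 genes with a promoter, 16 were below all other libraries there and 13 above. Of all genes at 10 CPM or more, 40.8% were below and 36.3% above. The windows of the 3 eIF3 genes are shown because these genes carry the pattern in WT replicate 2, with CACGTG in capitals, 23 bases after the start for Eif3a and 68 and 44 bases before it for Eif3f and Eif3k.
Eif3a, chr19:60790654-60790683, minus strand: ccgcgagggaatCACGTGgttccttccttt
Eif3f, chr7:108934335-108934364, plus strand: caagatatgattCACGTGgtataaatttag
Eif3k, chr7:28981915-28981944, minus strand: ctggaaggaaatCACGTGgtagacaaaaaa
The other 7 eIF3 genes with a promoter did not hold these letters, Eif3m and Eif3l among them. A match is a description of the letters in the window and was not tied to the levels by a test.

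mRNAs of elongation factors and ribosomal proteins are known to start with C and a run of C and T, a tract through which mTORC1 controls their translation. On the gene's strand, a C followed by C or T for at least 6 bases in all, beginning within 20 bases of an annotated start, was found for 13 of the 39 genes (33.3%), against 34.2% of all genes in the promoter table and 35.5% of those at 10 CPM or more. By this rule the share among initiation factors was close to that of other genes, and 4 of the 10 eIF3 genes with a promoter held the tract. The rule does not ask that the tract begin at the first base of the mRNA. It therefore cannot tell whether these mRNAs start with such a tract. The start regions of Eif3f and Eif3l, which were both low in WT replicate 2, are shown with the longest such run in capitals, and the Eif3l window holds a shorter one before it.
Eif3f, chr7:108934400-108934429, plus strand: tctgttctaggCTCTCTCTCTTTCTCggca
Eif3l, chr15:79075208-79075237, plus strand: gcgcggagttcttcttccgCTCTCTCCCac

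The cap-binding protein eIF4E is the limiting part of the cap complex in many cells. Eif4e had 113, 90.4 and 92.7 CPM in WT and 96.3, 107 and 91.8 CPM in cKO, with a log2 fold change of -0.01 (95% interval -0.35 to 0.34) on 6 libraries and -0.07 (95% interval -0.40 to 0.26) without WT replicate 2. The groups overlapped, and per kb Eif4e gave 54.7% to 64.0% of the summed level of Eif4e, Eif4e2 and Eif4e3. Eif4e2, a cap-binder that can repress mRNAs, had 79.7 to 113 CPM, and Eif4e3 had 35.6 to 49.5 CPM, both with overlapping groups. Of the eIF4G scaffolds, which bridge the cap, the helicase and eIF3, Eif4g1 had 162, 161 and 138 CPM in WT and 176, 134 and 151 CPM in cKO. Its mean was 153.8 CPM in each group, and the log2 fold change was -0.00 (95% interval -0.37 to 0.37) on 6 libraries and 0.03 (95% interval -0.32 to 0.39) without WT replicate 2. Eif4g3 had 108, 137 and 122 CPM in WT and 112, 95.9 and 99.4 CPM in cKO, the groups overlapping by cKO replicate 1. Its log2 fold change was -0.25 (SE 0.15, unadjusted p of 0.127 in edgeR), and -0.17 (SE 0.13) without WT replicate 2. Eif4g2, a scaffold without the eIF4E site that serves cap-independent initiation, had 532, 675 and 573 CPM in WT and 626, 607 and 647 CPM in cKO, and without WT replicate 2 its cKO values all lay above its WT values, at a log2 fold change of 0.18 (SE 0.16). Counts of Eif4g2 were fractional in all 6 libraries, so its level is uncertain.

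The helicase eIF4A unwinds the leader of the mRNA with the cofactors eIF4B and eIF4H. Eif4a1 had 492, 547 and 493 CPM in WT and 479, 523 and 493 CPM in cKO, and its log2 fold change was -0.04 (95% interval -0.39 to 0.32) on 6 libraries and 0.02 (95% interval -0.33 to 0.37) without WT replicate 2. Its paralog Eif4a2 varied more, with 455, 922 and 611 CPM in WT and 636, 518 and 523 CPM in cKO. WT replicate 2 was the highest library, at 1.68 times the mean of the others, and WT replicate 1 the lowest. Per kb, Eif4a2 gave 44.2% of the summed level of Eif4a1, Eif4a2 and Eif4a3 in WT replicate 2 and 29.9% to 38.0% in the other libraries. Eif4a2 holds small nucleolar RNA genes in its span, its counts were fractional in 5 libraries, and its log2 fold change went from -0.25 (SE 0.27) to 0.06 (SE 0.19) without WT replicate 2. Eif4a3, the paralog of the exon junction complex, had 162 to 182 CPM in all 6 libraries. Eif4b had 238, 132 and 225 CPM in WT and 235, 237 and 255 CPM in cKO, with WT replicate 2 the lowest by a wide gap, and a log2 fold change of 0.29 (SE 0.23) that was 0.06 (SE 0.14) without it.

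The 4E-BPs and 4E-T (Eif4enif1) compete with eIF4G for eIF4E. Apart from Eif4e1b, the genes whose WT and cKO values did not overlap on 6 libraries were both among them. Eif4ebp2 (GRCm38 chr10:61428491-61452661, minus strand), coding for a 4E-BP that mTORC1 controls, had 158, 159.5 and 159.8 CPM in WT and 179, 163 and 204 CPM in cKO. Every cKO value lay above every WT value, and the WT libraries differed by little. The log2 fold change was 0.19 (SE 0.14, unadjusted p of 0.204 in edgeR) on 6 libraries and also 0.19 (SE 0.15) without WT replicate 2. Eif4enif1 (GRCm38 chr11:3202392-3244588, plus strand), which carries eIF4E into the nucleus and to sites of mRNA decay, had 40.0, 50.2 and 38.1 CPM in WT and 37.0, 33.1 and 31.6 CPM in cKO. Every cKO value lay below every WT value, the nearest being 37.0 and 38.1 CPM. The log2 fold change was -0.33 (SE 0.17, unadjusted p of 0.0953 in edgeR) and -0.20 (SE 0.13) without WT replicate 2. Eif4enif1 overlaps Drg1 on the other strand and its counts were fractional in 3 libraries. Counting Eif4e1b, cKO values all above the WT values were seen for 2 of the 51 genes, against 5.01% of all genes, and cKO values all below for 1, against 3.23%, so that the shares of 3.92% and 1.96% were no higher than those of all genes. Without WT replicate 2, cKO values lay all above for 4 (Eif2s3x, Eif4e1b, Eif4ebp2 and Eif4g2; 7.84%, against 8.48% of all genes) and all below for 2 (Eif2d and Eif4enif1; 3.92%, against 7.53%). For a single gene, the smallest p that the exact permutation test of 3 against 3 libraries can give is 0.1 (two-sided). It gave that for Eif4ebp2, Eif4enif1 and Eif4e1b, the genes without overlap on 6 libraries. Eif4ebp1 had at most 22.5 CPM and Eif4ebp3 3.43 to 10.1 CPM, both with overlapping groups.

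The last steps of initiation release the factors and join the large subunit. Eif5, which triggers GTP hydrolysis on eIF2, had 244, 391 and 281 CPM in WT and 274, 267 and 258 CPM in cKO. WT replicate 2 was the highest library and the other 5 lay close together, and the log2 fold change was -0.20 (SE 0.20), or 0.02 (SE 0.14) without it. Eif5b, the GTPase of subunit joining, had 50.4 to 74.3 CPM, with fractional counts in all libraries. Eif6, which keeps free large subunits from joining, had 80.1, 46.5 and 71.0 CPM in WT and 64.1, 83.9 and 72.9 CPM in cKO, again with overlapping groups. Eif5a, whose hypusine-bearing product is now known for elongation and termination rather than initiation, had 637, 453 and 579.9 CPM in WT and 569, 611 and 599 CPM in cKO, with a log2 fold change of 0.09 (SE 0.18), or -0.04 (SE 0.16) without WT replicate 2. Per kb, Eif5a gave 99.1% to 99.5% of the summed level of Eif5a and its paralog Eif5a2, which had 11.2 to 14.2 CPM. Counts of Eif5a were fractional in all 6 libraries, so its level is uncertain.

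Seen over all initiation factors, WT replicate 2 lay beyond the range of the other libraries about as often as over other genes. Wide gaps upward were fewer, in this 1 library, and the difference was not tested. Of the 48 at 10 CPM or more, 20 were below every other library there (41.7%) and 16 above (33.3%), against 40.8% and 36.3% of the 8436 genes at that level. A gap of at least 1.5-fold below the mean of the others was seen for 12 of the 48, against 26.0% of genes, and 1.5-fold above for 3 (6.25%), against 16.7%. The 12 were Eif3c, Eif3d, Eif3f, Eif3h, Eif3i, Eif3k, Eif3l and Eif3m, and beside these Eif1ax, Eif2d, Eif4b and Eif6. The 3 were Eif2b1, Eif3j1 and Eif4a2. The eIF2 and eIF2B subunit genes had no member below all others, and the median ratios were 1.18 and 1.24, against 0.588 for eIF3. Of the 8436 genes at 10 CPM or more elsewhere, 71 were at 0 counts in WT replicate 2, and none of the 48 initiation factors was among them. That share of all genes is too small for the absence to set 48 genes apart.

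**Figure D4:**
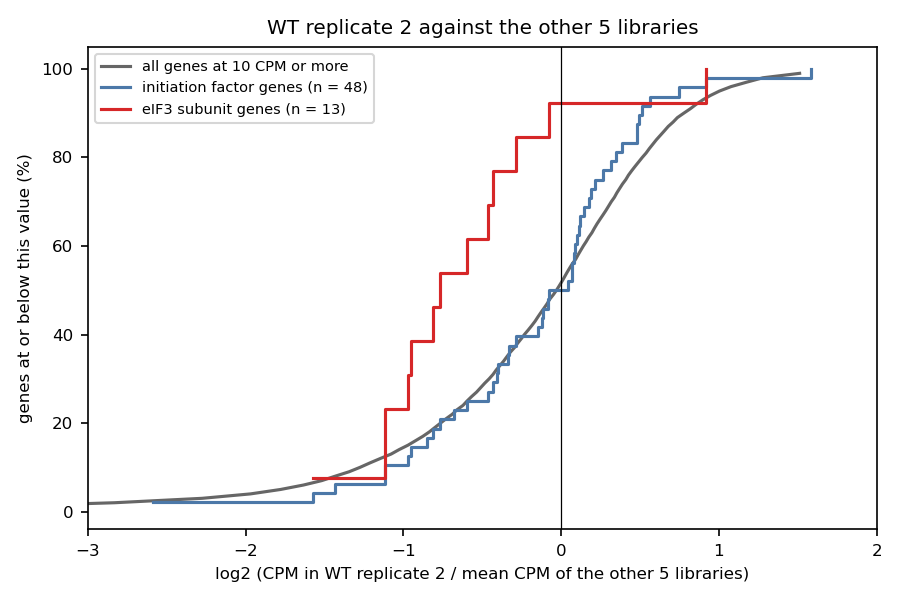
The x axis gives log2 of the CPM in WT replicate 2 over the mean CPM of the other 5 libraries, and the y axis the percentage of genes at or below that value. Of the 48 initiation factor genes, drawn as steps, 6.25% lie at 1.5-fold above or more, against 16.7% of all 8436 genes at 10 CPM or more, while the steps for 13 eIF3 subunit genes lie to the left, with a median ratio of 0.588.

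Genes that act on initiation or on the next steps of translation were read in the same fit, and none of them passed an unadjusted p of 0.05 in edgeR in either direction, with or without WT replicate 2. Of the 46, cKO values lay all above the WT values for 4 (Eif2ak1, Pabpc1, Abcf1 and Eef2; 8.7%, against 5.01% of all genes) and all below for 2 (Rheb and Rps6kb2; 4.35%, against 3.23%). Without WT replicate 2, cKO values lay all above for 6, with Ppp1r15a and Etf1 added (13.0%, against 8.48% of all genes). They lay all below for the same 2 (4.35%, against 7.53%). The eIF2 kinases and stress response genes had 5 log2 fold changes above 0 and 5 below, with a median of -0.02, and -0.06 without WT replicate 2. The smallest unadjusted p was 0.0538 in edgeR, for the heme-regulated kinase Eif2ak1, with 52.2, 41.4 and 44.6 CPM in WT and 53.9, 59.0 and 63.6 CPM in cKO (log2 fold change 0.35, SE 0.15). Every cKO value of Eif2ak1 lay above every WT value. By DESeq2 it passed at an unadjusted p of 0.0401 (adjusted p of 0.999), and its log2 fold change without WT replicate 2 was 0.28 (SE 0.14) in edgeR. Ppp1r15a, the stress-induced subunit of the phosphatase that restores eIF2, had 627, 1451 and 920 CPM in WT and 953, 928 and 958 CPM in cKO. Genes of mTORC1 and MNK signaling to the cap had 6 above 0 and 8 below, with a median of -0.02, and -0.06 without WT replicate 2. Among them Mknk2, a kinase of eIF4E, had 427 to 525 CPM with overlapping groups. The poly(A)-binding and reinitiation partners had 5 above and 6 below, with a median of -0.01 in both fits, and Pabpc1, the poly(A)-binding protein that eIF4G holds, had 1565, 1741 and 1577 CPM in WT and 1806, 1802 and 1929 CPM in cKO. Pabpc1 had a log2 fold change of 0.18 (95% interval -0.27 to 0.63) on 6 libraries and 0.23 (SE 0.18) without WT replicate 2. The hypusine enzymes Dhps and Dohh, which modify eIF5A, had medians of 0.16 and, without WT replicate 2, 0.04.

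The elongation and termination genes had 6 log2 fold changes above 0 and 3 below, with a median of 0.31 that was 0.07 without WT replicate 2. Of the 8 at 10 CPM or more, 5 were at least 1.5-fold below the mean of the others in that library, against 26.0% of all genes at that level. Those 5, Eef1a1, Eef1b2, Eef1d, Eef1g and Eef2, were below all other libraries there, at 0.411 to 0.578 times their mean, while the termination and recycling genes Etf1, Gspt1 and Abce1 were above all others, at 1.28, 1.25 and 1.71 times. Of all genes at 10 CPM or more, 40.8% were below all others there and 36.3% above. Eef1b2, the exchange factor of eEF1A, had 785, 317 and 718 CPM in WT and 576, 917 and 865 CPM in cKO. Eef2, the translocase, had 4364, 2632 and 4017 CPM in WT and 4373, 4845 and 5174 CPM in cKO. In both, WT replicate 2 was the lowest library, and in Eef1b2 cKO replicate 1 was the next lowest.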

How the data were processed

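Tumor-infiltrating Tregs of 3 WT and 3 cKO libraries were measured. Per the labels, RNA was extracted with TRIzol and libraries were made with the SMARTER mRNA-seq kit, and the submitters' processing notes name Bowtie2 (version 2.3.4.3), RSEM (version 1.3.1) and GRCm38. The values the authors deposited are expected counts per symbol with no normalization; strandedness and annotation are not given in the sources used here. Of these values, 21.6% lay more than rounding error from a whole number, and all were rounded before testing.

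Counts were tested in R (version 4.3.3) with edgeR's quasi-likelihood test (version 4.0.16), TMM scaling, no covariate and p-values adjusted after Benjamini and Hochberg for the 15315 genes with a count in any library. The standard error is the absolute log2 fold change divided by the square root of F. The fit was repeated without WT replicate 2. A count of 3 was worth 0.133 to 0.156 CPM. Replicates differed beyond sampling noise (chi-square per gene 22.6 to 279) and each was used as 1 sample. Positions and transcript lengths came from GENCODE vM21, where all 51 genes were found. CPM per kb divides by the longest well-supported coding transcript.

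The genes, roles and lists were chosen with earlier results of these data known. Genes described by name are those of each role, pairs of paralogs, genes without overlap between groups, and those with the most extreme ratio in WT replicate 2; the remaining eIF3 subunits, Eif1a, Eif1ad, Eif2s1, Eif2b3, Eif2b4, Eif2b5, Eif4b, Eif5b, Eif6, Eif2ak1, Dohh, Eef1b2 and Eef2 were added after their values were seen. Alternatives were DESeq2 (version 1.42.0), its size factors in edgeR, library size only, filterByExpr (minimum count 10), limma's voomWithQualityWeights (version 3.58.1), a block for the replicate number, leaving out every library once, and DESeq2 without WT replicate 2. The scripts were tested on simulated data.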

Additional observations from a re-analysis of the deposited data

How the results depend on the processing

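No initiation factor passed an adjusted p of 0.05 under any alternative run, and none passed an unadjusted p of 0.05 as lower. The 1 passing as higher, Eif4e1b, also passed under DESeq2 size factors, library size only and voomWithQualityWeights, and no gene passed with filterByExpr, where Eif4e1b was not tested, with DESeq2, with the replicate number as a block, with DESeq2 without WT replicate 2, or on leaving out any library other than WT replicate 1 (0 to 1 genes over the libraries left out); the cause was not tested. Without WT replicate 1 the 1 gene that passed was another, Eif3b (log2 fold change 0.37, unadjusted p of 0.0405 in edgeR), where WT replicate 2 was 1 of the 2 WT libraries left. The median log2 fold change of the initiation factors, 0.07, became -0.0072 with library size only and kept its sign elsewhere. Over all genes, DESeq2 called 1 higher and 1 lower at an adjusted p of 0.05, DESeq2 without WT replicate 2 called 1 and 2, and edgeR without WT replicate 2 called 1 lower, with a range of 0 to 1 over libraries left out.

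At an unadjusted p of 0.05, the 144 higher genes became 39 with filterByExpr, 95 with DESeq2, 262 with voomWithQualityWeights and 39 with the replicate block, and ranged from 45 without cKO replicate 3 to 287 without WT replicate 3. The 133 lower genes became 212 with DESeq2, 281 with voomWithQualityWeights and 46 with the replicate block, and ranged from 20 without cKO replicate 3 to 601 without WT replicate 1. Same-numbered libraries deviated with correlations of 0.121, -0.0445 and 0.189, against -0.218 to 0.0863 for libraries of unlike number. WT replicates 1 and 3 correlated best with the cKO library of their own number, and WT replicate 2 did not. Whether the numbers pair the libraries cannot be told from these values.

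Of 36 genes followed, 12 changed the sign of the log2 fold change without WT replicate 2, all with intervals that held 0. With library size only it turned to -0.037 for Dhps, -0.0072 for Eif2a, -0.020 for Eif2b2 and -0.049 for Eif4a3. With DESeq2 size factors or DESeq2 it turned to 0.0003 and 0.0002 for Eif4e and to 0.0064 for Eif4g1 in both. With voomWithQualityWeights it turned to -0.022 for Dhps, 0.18 for Eif2b1, -0.062 for Eif2d, 0.017 for Eif4a1, 0.11 for Eif4e2, 0.027 for Eif4g1 and 0.21 for Ppp1r15a, and with the replicate block to 0.007 for Ppp1r15a. With DESeq2 without WT replicate 2 it turned to -0.084 for Dhps, -0.12 for Eif1ax, 0.21 for Eif2b1, -0.13 for Eif2d, -0.027 for Eif3m, 0.014 for Eif4a1, 0.062 for Eif4a2, 0.079 for Eif4e2, 0.032 for Eif4g1, 0.019 for Eif5, -0.041 for Eif5a and 0.29 for Ppp1r15a. Over the libraries left out, values ranged from -0.081 to 0.12 for Dhps, -0.12 to 0.79 for Eif1ax, -0.18 to 0.055 for Eif1b, -0.0084 to 0.14 for Eif2a, -0.89 to 0.21 for Eif2b1, -0.13 to 0.48 for Eif2d, -0.073 to 0.021 for Eif2s3y, -0.024 to 0.63 for Eif3m, -0.072 to 0.017 for Eif4a1, -0.46 to 0.065 for Eif4a2, -0.025 to 0.051 for Eif4a3, -0.070 to 0.10 for Eif4e, -0.12 to 0.12 for Eif4e2, -0.49 to 0.27 for Eif4ebp3, -0.11 to 0.089 for Eif4g1, -0.33 to 0.021 for Eif5, -0.038 to 0.20 for Eif5a and -0.33 to 0.29 for Ppp1r15a. With 3 libraries a group, only changes beyond each interval could be seen.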
